A study of Mus musculus with 32 samples.

Results

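The genes described here are the 3 transforming growth factor beta ligands (Tgfb1, Tgfb2, Tgfb3), their 3 receptors (Tgfbr1, Tgfbr2, Tgfbr3) and 2 secreted CCN proteins often used as response genes (Ccn1, also called Cyr61, and Ccn2, also called connective tissue growth factor). Every probe set annotated to exactly 1 of these 8 genes was taken, which gave 13 of the 24965 probe sets of the series (8 of its 13660 named genes): 9 on the first of 2 Affymetrix array types and 4 on the second. Total RNA of mouse cardiac ventricle was hybridised to both types, with 16 arrays of each type. The wild type group (5 arrays of each type) had a normal cardiac phenotype. The hypertrophy group (8 arrays) was taken from hypertrophic hearts of mice carrying an AT1 transgene that is specific to the heart, and the failure group (3 arrays) from failing hearts of mice with that transgene. AT1 is not written out in the labels and is commonly short for the angiotensin II type 1 receptor. Promoter, line, age, sex and strain are not stated there. All transgenic samples were in hypertrophy or failure, so the transgene and the phenotype change together against wild type. Nothing in the labels ties each array to an animal of its own. The p-values therefore cover only the spread among these samples, and some of that spread may be technical.

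TGF-beta ligands are secreted as latent complexes bound to the matrix and, once released, bring together the type II receptor (Tgfbr2) and the type I receptor (Tgfbr1), which phosphorylates SMAD proteins that act on gene transcription. Tgfbr3, or betaglycan, is a co-receptor that presents ligand, with a high affinity for TGF-beta 2. In the heart the pathway is best known for its action on fibroblasts and matrix production, and Ccn1 and Ccn2 also respond to the YAP and TEAD factors and to mechanical load.

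The sequences upstream of 2 of these genes are shown because Tgfbr1 carried the only change past the threshold and Ccn1 had the largest SD relative to its mean among the tested genes in the failure group. Each is the 250 bases before the gene's start in RefSeq (GRCm38.p6), 5′ to 3′ on the gene's strand: chr3:145649986-145650235 on the minus strand for Ccn1 and chr4:47352972-47353221 on the plus strand for Tgfbr1. Capitals mark matches, on either strand, to 5 short motifs: the TEAD core GGAATG, the SMAD half-site CAGAC, the cAMP response half-site TGACG, the Sp1 box GGGCGG and the TATA box TATAAA.
Ccn1: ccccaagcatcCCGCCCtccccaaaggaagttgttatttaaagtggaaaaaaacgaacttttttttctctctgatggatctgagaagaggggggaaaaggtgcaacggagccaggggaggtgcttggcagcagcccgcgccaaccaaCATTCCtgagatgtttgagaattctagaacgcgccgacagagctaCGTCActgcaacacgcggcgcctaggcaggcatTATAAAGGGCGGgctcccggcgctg
Tgfbr1: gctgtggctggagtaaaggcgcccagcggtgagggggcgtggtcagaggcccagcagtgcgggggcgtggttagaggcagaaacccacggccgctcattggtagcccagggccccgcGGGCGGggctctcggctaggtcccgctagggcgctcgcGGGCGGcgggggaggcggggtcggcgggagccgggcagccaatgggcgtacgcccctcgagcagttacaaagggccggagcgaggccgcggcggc
The Ccn1 window held a TEAD core from 103 to 98 bases before the start (as CATTCC), a cAMP response half-site from 58 to 54 bases before it (as CGTCA), and a TATA box from 25 to 20 bases before it that adjoins an Sp1 box from 19 to 14, without overlap. A further Sp1 box lay from 239 to 234 bases before the Ccn1 start. The Tgfbr1 window, with a GC content of 74.8% against 54.8% for Ccn1, held Sp1 boxes from 133 to 128 and from 95 to 90 bases before the start and none of the other motifs. Neither window held the SMAD half-site. Of the 32544 upstream windows of this length in the table, the TEAD core was in 12.6%, the SMAD half-site in 42.2%, the cAMP half-site in 17.8%, the Sp1 box in 33.0% and the TATA box in 12.3%. These matches describe letters only. Windows at the gene's start were matched for 4 of the 8 genes (also Tgfb1 and Tgfbr2).

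The values are deposited linear intensities, called signal below. Levels of different member probe sets are not compared. Signals below the 20th percentile of their array type (39.5 on the first, 27.5 on the second, called the floor) were raised to it, and changes are differences in mean log2 signal with their standard error (SE), from 1 limma fit per array type. A probe set was tested when 3 or more of the 16 arrays gave it a signal at or above the median of that array, and a difference is called when its Benjamini-Hochberg adjusted p, over all tested probe sets of the type, is under 0.05. Of the 13 probe sets, 6 were tested (Tgfb3, Ccn1 and Ccn2 on the first type, and Tgfbr1, Tgfbr2 and Tgfbr3 on the second). The other 7 reached their array's median in fewer than 3 arrays and are described from their signals. Not all of them were near the floor. The heart muscle of the label was checked on the first type against 12 of 13 cardiomyocyte markers, which do not tell ventricle from atrium. Their summed signal was 60299 to 68892 in wild type, 56179 to 71971 in hypertrophy and 64980 to 66493 in failure.

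Before the results, a few arrays need naming. Hypertrophy replicates 6 and 7 had a Gapdh 5′ to 3′ ratio, a measure of RNA integrity, of 0.468 and 0.0487 on the first type, against 0.806 to 1.11 on the other 14 arrays. Hypertrophy replicate 1 had the lowest median signal of the first type (91.8, with 102 to 121 on the other arrays) and the lowest of the second (69.3, with 71.2 to 80.6). The Actb 5′ to 3′ ratio was 0.765 to 1.10 in failure and 0.545 to 0.752 in wild type on the first type. The arrays with Xist above the Y-linked Eif2s3y numbered 2 of 5 for wild type, 4 of 8 for hypertrophy and 2 of 3 for failure, where replicate 3 was the exception. Across equally numbered arrays of both types the Gapdh ratio correlated at r = 0.997 and the Actb ratio at r = 0.932 (n = 16 each), while Xist, whose signal on the second type was 51.5 or less, gave r = 0.356. Whether the types share RNA extracts is not settled by these values, and they are not counted as independent.

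When failure was set against wild type, the signal of all 6 tested probe sets was higher, and limma called 1 of them, Tgfbr1 on the second type. Of the 6, 4 had an unadjusted p under 0.05. Over 9440 genes, each by its brightest tested probe set, 58.7% were higher in failure. Ccn1, 1 of the 4, was tested only through hypertrophy and failure arrays in which it is high. Its place in these counts is therefore not independent of the filter. Over all tested probe sets, 0.143% of the first type were called, as were 0.357% of the second. The calls of that comparison split into 9 higher against 1 lower (first type) and 20 against 5 (second type). Quantile scaling gave 20 against 10 and 20 against 15, and median scaling 15 against 18 and 19 against 21. The arrays of both groups did not overlap for 3 of the 6 tested probe sets (Tgfb3, Ccn2 and Tgfbr1), all higher in failure, where 8.58% and 9.77% of all tested probe sets of the first and second type did the same. In hypertrophy against wild type, limma called 0 of the 6 (1 of 6 at an unadjusted p under 0.05), with 0% and 0.171% called over all tested probe sets, and 0 of the 13 member probe sets were higher without overlap, where 0.1% and 0.5% of all tested probe sets of the first and second type were. In failure against hypertrophy it called 0 of the 6 (3 of 6 at an unadjusted p under 0.05), with 0% and 0.0286% called over all. There the arrays did not overlap for 2 of the 6 (Ccn2 and Tgfbr1), where 1.75% and 1.2% of all tested probe sets were higher without overlap. At an unadjusted limma p under 0.05 stood 746 of 6980 probe sets (first type) and 854 of 7004 (second) in failure against wild type. The counts were 312 and 684 for hypertrophy against wild type, and 702 and 607 for failure against hypertrophy. The comparisons with failure share its 3 arrays, and those with wild type share its 5, so their agreement in sign is not independent. All of these are bulk samples, in which fewer cells of a type and less RNA per cell cannot be told apart.

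**Figure D1:**
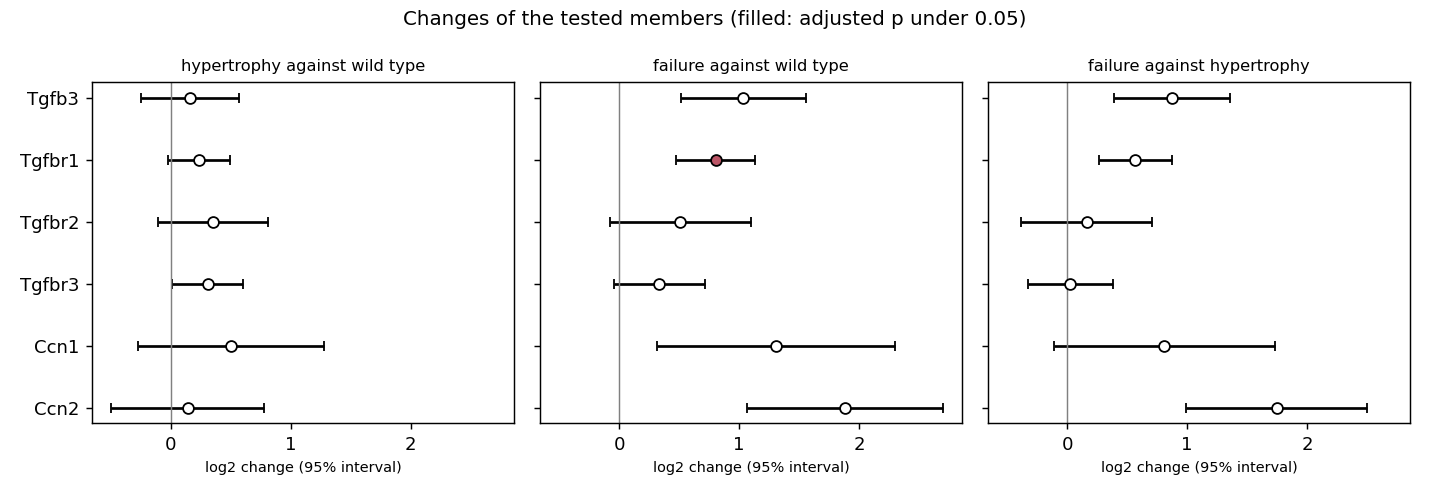
Log2 difference between groups (horizontal axis) for the 6 tested probe sets (rows) in the 3 comparisons, with points at the limma estimate and bars for its 95% interval. All points lie above 0, and only the difference of Tgfbr1 in failure against wild type (0.80) was called. Of all 13 member probe sets in the unfiltered fit, 9 were above 0 in hypertrophy against wild type. The count was 11 in each comparison with failure.

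Among the ligands, Tgfb3, known for its part in palate and lung development, was the only one tested. Its signal in the 5 wild type arrays, in replicate order, was 110, 118, 104, 116 and 104. In hypertrophy the lowest of 8 arrays was 68.1, the median 128 and the highest 174, and in failure the arrays were 235, 292 and 167. All 3 failure arrays lay above every wild type array, while failure replicate 3 lay inside the hypertrophy range, and the wild type arrays were much closer together than those of hypertrophy. Mean signal was 110 ± 6.49 (SD, n = 5) in wild type, 128 ± 35.1 (SD, n = 8) for hypertrophy and 232 ± 62.7 (SD, n = 3) in failure. Failure exceeded wild type by 1.03 ± 0.25 (SE, log2; 2.05-fold, 95% interval 1.43 to 2.94), with an adjusted p of 0.117 in the limma fit. That difference was called in 4 of 30 alternative settings, among them the fit without hypertrophy replicate 1 (adjusted p 0.0230) and the fit without failure replicate 3 (1.25, adjusted p 0.0430). It was smallest without failure replicate 2 (0.85, adjusted p 0.603). Failure against hypertrophy differed by 0.88 ± 0.23 (adjusted p 0.200) and hypertrophy against wild type by 0.16 ± 0.19 (adjusted p 0.976). The lowest hypertrophy array was replicate 1, the array with the lowest median signal. A further Tgfb3 probe set was below the floor on 4 of the 5 wild type arrays and on all 8 hypertrophy and 3 failure arrays, so no fold is given for it.

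Tgfb1, the ligand most often linked to cardiac fibrosis, reached the array median in only 2 of 16 arrays and was not tested. Its wild type signals were 124, 105, 101, 98.7 and 101. In hypertrophy the lowest was 64.3, the median 88.7 and the highest 112, and failure arrays stood at 103, 90.9 and 106. The 3 groups overlapped, and failure lay close to wild type. In a fit of all probe sets without the filter, hypertrophy differed from wild type by -0.27 ± 0.12 (unadjusted p 0.0366, adjusted p 1 in limma) and failure from wild type by -0.08 ± 0.15. No difference of Tgfb1 was called.

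Tgfb2, the ligand that depends most on betaglycan, was dim, with 3 of 5 wild type and 4 of 8 hypertrophy arrays below the floor. Its wild type signals were 43.0, 30.6, 43.3, 35.4 and 25.0, the hypertrophy arrays had a lowest value of 18.6, a median of 39.2 and a highest of 52.6, and failure arrays were 66.6, 72.5 and 54.1. Every failure array was above every array of the other groups, by little for replicate 3. Over all non-control probe sets of the first type, 7.99% were higher without overlap in failure than in wild type, and 1.69% were so against hypertrophy. Without the filter, failure differed from wild type by 0.64 ± 0.10 (adjusted p 0.0247) and from hypertrophy by 0.59 ± 0.10 (adjusted p 0.0425), where such a fit called 0.177% and 0.0805% of probe sets. The size of both differences depends on the floor. With the 10th percentile as the floor they were 0.88 ± 0.28 (adjusted p 0.285) and 0.81 ± 0.26 (adjusted p 0.357), and with a floor of 50 they were 0.35 each. Arrays raised to the floor share 1 value, so the spread within their groups is understated, and the adjusted p may be too low. Among 27 alternatives of the unfiltered fit the difference from wild type was called in 17, with adjusted p from 0.000563 to 0.285. It was not called without failure replicate 1 (adjusted p 0.123), without failure replicate 2 (0.179), or without any of wild type replicates 2 to 5 (0.0559 to 0.0755). Nor was it called with the replicate block (0.206), with only the groups compared (0.0564) or with Xist class as a covariate (0.0525). The difference from hypertrophy was called in 9 of the 27, with adjusted p up to 0.369, and was not called with median scaling (0.0585).

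**Figure D2:**
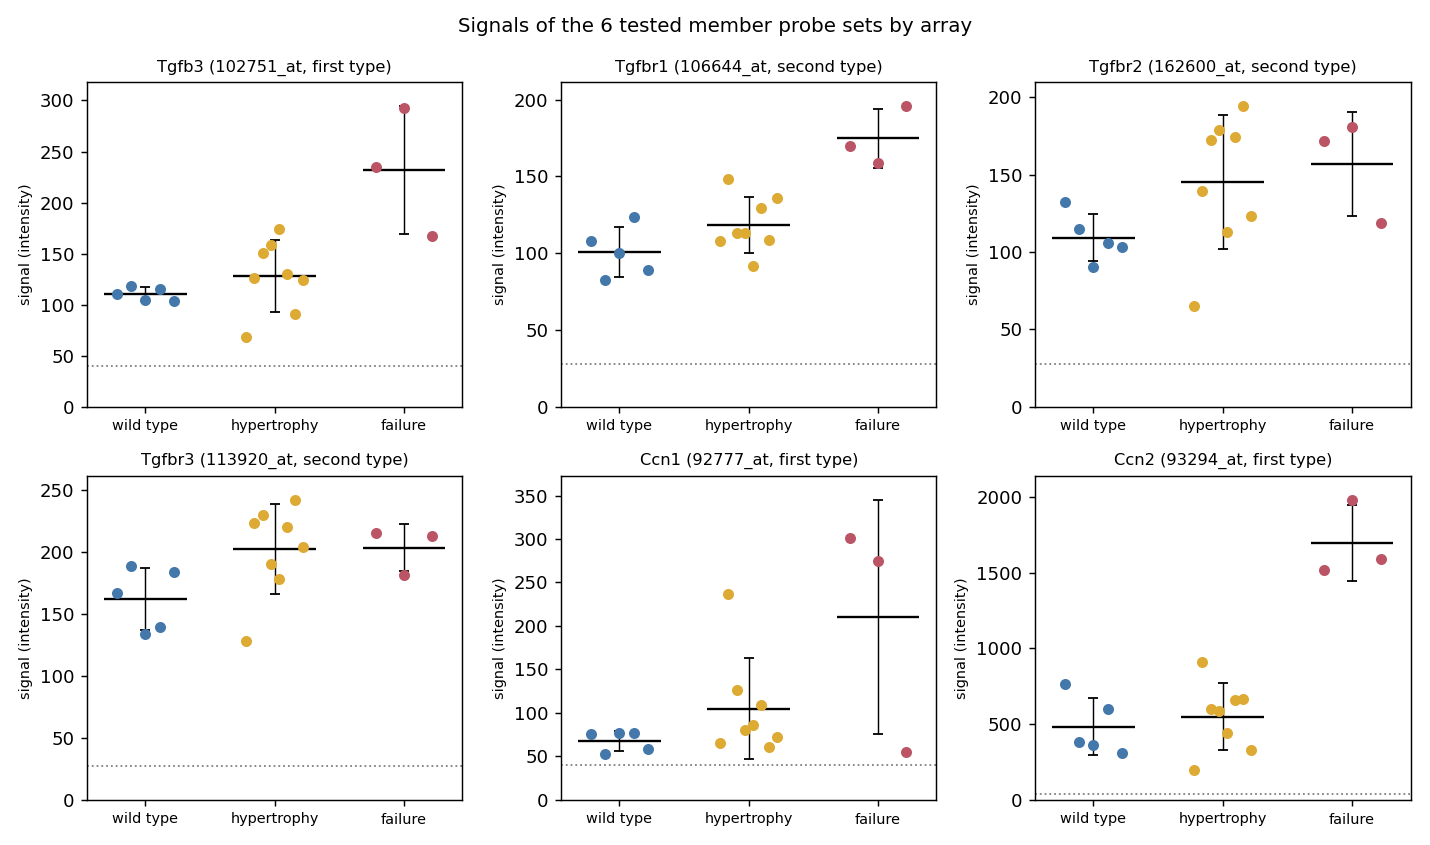
Signal (intensity) by group for the 6 tested probe sets, with 1 panel per probe set and an axis that starts at 0. Points are arrays, bars the mean with SD, and the dotted line the floor of the array type. Ccn2 and Tgfbr1 stand apart in failure from both other groups, Tgfb3 from wild type, and the failure arrays of Ccn1 split into 302 and 274 against 55.5.

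The type I receptor Tgfbr1, the kinase that phosphorylates SMAD2 and SMAD3, carried the only call. On the second type its wild type signals were 108, 82.3, 100, 123 and 89.3. The hypertrophy arrays ran from 91.4 through a median of 113 to 149, and the failure arrays were 170, 159 and 196. Every failure array was above every wild type and hypertrophy array. The means were 101 ± 16.1 (SD, n = 5), 119 ± 18.3 (SD, n = 8) and 175 ± 18.9 (SD, n = 3). Tgfbr1 rose by 0.80 ± 0.16 (SE, log2; 1.75-fold, 95% interval 1.39 to 2.20) in failure against wild type, with an adjusted p of 0.0362 in limma. Failure exceeded hypertrophy by 0.57 ± 0.15 (adjusted p 0.239), and hypertrophy differed from wild type by 0.24 ± 0.12 (adjusted p 0.553). The call is close to the threshold. It was lost without any 1 of wild type replicates 1, 2, 3 and 5, hypertrophy replicates 4 and 6 or failure replicates 1, 2 and 3, where the log2 difference was 0.72 to 0.87 and the adjusted p 0.0524 to 0.123. With the Actb ratio of each array as a covariate the difference was 0.76, with an adjusted p of 0.0527.

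A second Tgfbr1 probe set, on the first type, was dim. Its wild type signals were 28.0, 34.0, 25.6, 50.4 and 43.8, those of hypertrophy had a lowest value of 36.1, a median of 57.7 and a highest of 79.9, and failure arrays were 51.6, 58.4 and 51.6. The failure arrays were all above wild type, by little, and lay inside the hypertrophy range. Without the filter, failure differed from wild type by 0.34 ± 0.24 (adjusted p 0.744), which was 0.61 with the 10th percentile as the floor and 0.10 with a floor of 50, and hypertrophy from wild type by 0.39 ± 0.19 (adjusted p 1). Both Tgfbr1 probe sets thus had higher means in failure than in wild type, and only the second type's separated failure from hypertrophy.

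Tgfbr2, the type II receptor that binds ligand first, gave different signs on its 2 probe sets. On the second type wild type signals were 132, 115, 90.5, 106 and 104, hypertrophy ran from 65.2 through a median of 156 to 194, and failure arrays were 172, 181 and 119. Failure replicate 3 lay inside the wild type range, so the groups overlapped. Failure differed from wild type by 0.51 ± 0.28 (SE, log2; adjusted p 0.469) and hypertrophy by 0.35 ± 0.22 (adjusted p 0.639). Failure and hypertrophy differed by 0.16 ± 0.26 (adjusted p 0.885), with a 95% interval from -0.38 to 0.71. With the Actb ratio as a covariate the difference of failure from wild type was 0.96 and was called (adjusted p 0.0395). The lowest array was hypertrophy replicate 1.

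On the first type the dim Tgfbr2 probe set read 109, 94.9, 105, 107 and 106 in wild type, 63.5 to 113 with a median of 99.1 in hypertrophy, and 117, 111 and 105 in failure. Its groups overlapped throughout. In the unfiltered fit hypertrophy differed from wild type by -0.17 ± 0.11, against 0.35 for the other probe set, and failure by 0.09 ± 0.15, which was -0.0077 after quantile scaling and -0.0065 after median scaling. No direction is given for Tgfbr2 in either comparison.

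Betaglycan, Tgfbr3, had nearly equal means in failure and hypertrophy. On the second type wild type signals were 167, 188, 134, 139 and 184, the hypertrophy arrays ran from 129 through a median of 212 to 242, and failure arrays were 215, 181 and 213. The groups overlapped in every comparison. The mean was 162 ± 25.0 (SD, n = 5) in wild type, 202 ± 36.4 (SD, n = 8) for hypertrophy and 203 ± 19.0 (SD, n = 3) in failure. Hypertrophy differed from wild type by 0.31 ± 0.14 (unadjusted p 0.0436, adjusted p 0.494 in limma) and failure from wild type by 0.33 ± 0.18 (adjusted p 0.463). The difference of failure from hypertrophy was 0.03 ± 0.17, with a 95% interval from -0.32 to 0.38, so these arrays do not exclude differences inside that interval. Its sign turned with median scaling (-0.0139). Of the dim Tgfbr3 probe sets, that on the second type read 29.4, 35.7, 43.4, 27.6 and 34.9 in wild type, 31.0 to 51.9 with a median of 45.9 in hypertrophy, and 47.1, 49.8 and 42.4 in failure. It differed without the filter by 0.36 ± 0.13 in hypertrophy (adjusted p 0.469) and 0.46 ± 0.17 in failure (adjusted p 0.312), both against wild type and in the direction of the brighter probe set. The first type's Tgfbr3 probe set was below the floor in 4 of 5, 7 of 8 and 1 of 3 arrays.

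**Figure D3:**
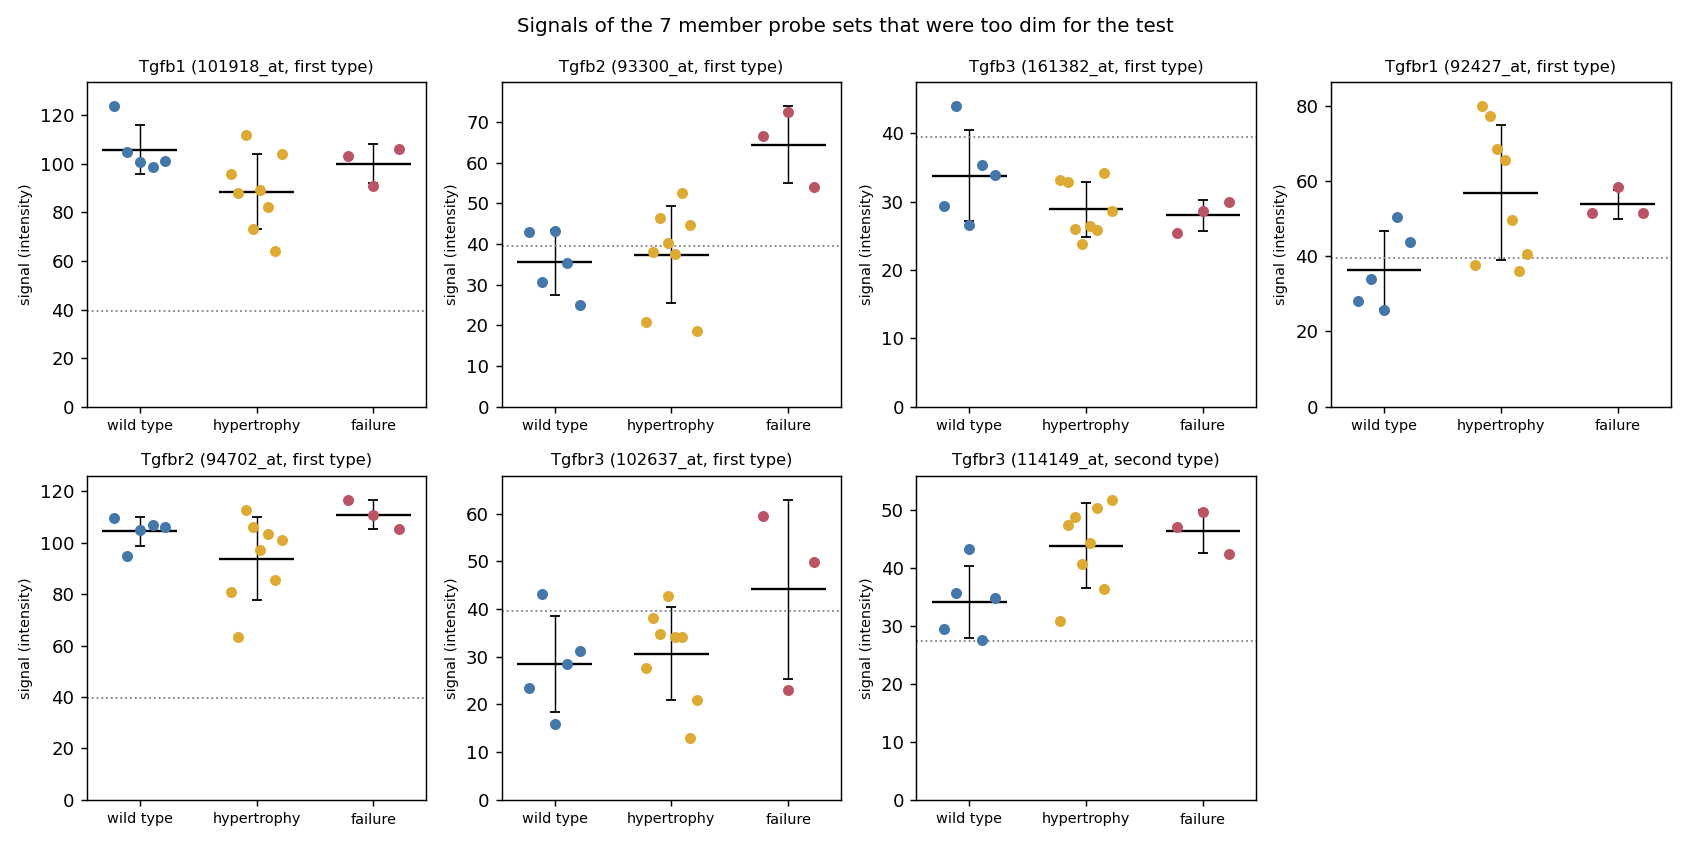
Signal (intensity) by group for the 7 member probe sets that were not tested, 1 panel each, with points for arrays, bars for mean and SD and a dotted line at the floor of the array type. Tgfb2 in failure (54.1 to 72.5) is above all other arrays, while much of the Tgfb3 and Tgfbr3 panels lies below the floor.

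Ccn2, a matricellular protein induced by TGF-beta and by load, had the largest difference of the tested members in failure. Its wild type signals were 762, 381, 365, 599 and 311. Hypertrophy had a lowest value of 199, a median of 593 and a highest of 910, and the failure arrays were 1516, 1982 and 1592. Every failure array was above every array of the other groups, and all wild type arrays lay inside the hypertrophy range. The means were 484 ± 191 (SD, n = 5), 549 ± 221 (SD, n = 8) and 1697 ± 249.8 (SD, n = 3). Failure differed from wild type by 1.88 ± 0.39 (SE, log2; 3.69-fold, 95% interval 2.10 to 6.51), with an adjusted p of 0.0587, just short of a call, and ranked 17 of 6980 by p. Against hypertrophy it differed by 1.75 ± 0.36 (3.35-fold, adjusted p 0.128), ranking 5 of 6980. Hypertrophy differed from wild type by 0.14 ± 0.30 (adjusted p 0.985), with a 95% interval from -0.50 to 0.78. The failure difference from wild type was called in 11 of 30 alternatives, with log2 differences from 1.75 to 2.34 and adjusted p from 0.000281 to 0.392. Among the calls were the fits with quantile scaling (1.92, adjusted p 0.0243), with the Actb ratio as a covariate (2.34, adjusted p 0.0321) and without hypertrophy replicates 6 and 7 (adjusted p 0.0491). With 1 array left out it was called in 3 of 16 fits, those without hypertrophy replicate 1, 2 or 7. It was not called without any single wild type or failure array, nor with the replicate block.

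Ccn1, the other CCN protein, split the failure group. Its wild type signals were 75.5, 52.6, 76.4, 76.6 and 58.8. Hypertrophy ran from 60.4 through a median of 83.3 to 237, with replicate 2 the highest, and the failure arrays were 302, 274 and 55.5. Failure replicates 1 and 2 were above every other array, and replicate 3 was inside the wild type range. This probe set passed the filter only through 2 hypertrophy and 2 failure arrays that reached their array's median, so it was tested because of the arrays in which it is high. The means were 68.0 ± 11.4 (SD, n = 5), 105 ± 58.0 (SD, n = 8) and 210 ± 135 (SD, n = 3). Failure differed from wild type by 1.31 ± 0.47 (adjusted p 0.318 in limma), and by 2.10 without failure replicate 3 (adjusted p 0.0170). Without failure replicate 1 the difference was 0.88 (adjusted p 0.814), and without failure replicate 2 it was 0.95 (adjusted p 0.851). Failure against hypertrophy was 0.81 ± 0.44 (adjusted p 0.551), which became 0.38, 0.45 and 1.60 without failure replicates 1, 2 and 3 in turn, and hypertrophy against wild type 0.50 ± 0.37 (adjusted p 0.960). On failure replicate 3 the Ccn2 signal was 1592, so Ccn1 was low where Ccn2 was not.

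**Figure D4:**
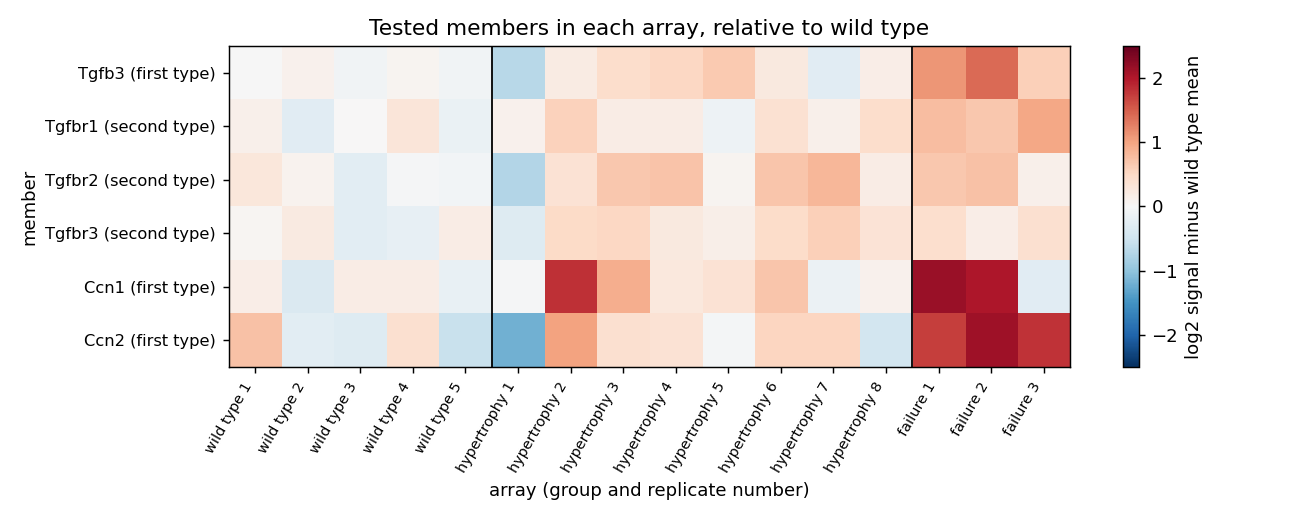
Log2 signal of each tested member on each array, relative to the mean of its wild type arrays, with genes in rows and arrays in columns by group. Ccn1 and Ccn2 part company on failure replicate 3 (-0.28 and 1.80), and hypertrophy replicate 1 has the lowest Ccn2 (-1.20) and Tgfb3 (-0.69) of its group.

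Sums of markers of other cell types overlapped between failure and wild type, except that of the atrial markers. The summed signal of 12 of 15 fibroblast markers on the first type was 5826 to 7004 in wild type, 4932 to 9302 in hypertrophy and 6116 to 10777 in failure. Failure replicate 3, at 6116, was inside the wild type range, as it was for Ccn1, while Tgfb3 (167) and Ccn2 (1592) were above wild type there. On the equally numbered array of the second type Tgfbr1 was at 196, its highest signal in failure. Limma called 0 of 13 tested fibroblast markers in failure against wild type (5 at an unadjusted p under 0.05), 11 of them were higher, and their median log2 difference was 0.47. Over all tested probe sets, 746 of 6980 (first type) and 854 of 7004 (second) had such an unadjusted p. Atrial markers (5 of 6), which tell atrium from ventricle in the healthy heart, summed to 1674 to 3730 in wild type, 1393 to 4934 in hypertrophy and 4444 to 6414 in failure. In this sum every failure array was above every wild type array. By mean log2 signal the same markers overlapped, at 7.86 to 8.46 in wild type and 8.06 to 9.39 in failure. Limma called 0 of the 5 in failure against wild type, with 3 higher and 2 lower (log2 differences from -0.61 to 1.60). Endothelial markers (8 of 12) were 2073 to 2539 in wild type and 2122 to 2565 in failure, smooth muscle and pericyte markers (9 of 10) 1931 to 2232 and 2229 to 2657, and macrophage and neutrophil markers (11 of 13) 2231 to 2907 and 2473 to 3064. The part of these cell type signals in the differences of the TGF-beta genes was not tested.

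Whether Ccn2 and the other members moved together within 1 group was looked at over the 8 hypertrophy arrays of the first type. The strongest of 7 relations was with Ccn1 (Pearson r = 0.632, exact permutation p 0.0957, adjusted p 0.449; Spearman rho = 0.452, exact permutation p 0.267). Tgfbr1 gave r = 0.588, Tgfb3 0.494, Tgfb2 0.403, Tgfb1 -0.397, Tgfbr3 0.127 and Tgfbr2 -0.125, and none passed after adjustment. The Tgfbr3 probe set was below the floor on 7 of these 8 arrays, so its r rests on replicate 4 alone and says nothing of how the gene moves with Ccn2, and the Tgfb2 probe set was below the floor on 4 of the 8. Without the 2 arrays farthest from the Ccn2 median (replicates 1 and 8) the relation with Ccn1 was r = 0.635, and that with Tgfb3 turned sign (-0.577). Without replicates 6 and 7, whose Gapdh ratio was low, 1 relation passed, that with the dim Tgfbr1 probe set (r = 0.919, exact permutation p 0.00139, adjusted p 0.00972; 6 arrays). The same relation was r = 0.060 without replicates 1 and 8. Replicate 1 had the lowest Ccn2 signal of the group (199) and was below the floor for this Tgfbr1 probe set (37.6).

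Probe sets whose log2 signal over the 16 arrays was most like each member were named, 3 a member, with the correlation after group means were removed beside it. These are descriptions, since the arrays share their scaling and RNA quality. For Ccn2 they were Slmap, a sarcolemma-associated protein (r = 0.915, 0.870 within groups), Papss1, an enzyme of sulfate donor synthesis (0.914, 0.853), and Anp32b (0.885, 0.778). For Ccn1 they were Ptdss1, a phosphatidylserine synthase (0.919, 0.881), the immediate-early factor Egr1 (0.867, 0.846) and Mthfd2 (0.856, 0.880). For Tgfb3 they were 2 matrix genes, Mfap5 (0.896, 0.758) and Postn, periostin (0.885, 0.815), and the heterochromatin protein gene Cbx5 (0.885, 0.796). For Tgfbr1 they were Ralgapa2 (0.909, 0.691), Clip1 (0.897, 0.725) and Mtap (0.889, 0.715), each called higher in failure than in wild type. They were picked for likeness to Tgfbr1, itself called in that comparison, so their calls add nothing of their own. Over all tested probe sets of the second type 0.357% were called there. For Tgfbr2 they were Reep3 (0.948, 0.954), the actin-linked Parva (0.943, 0.983) and Cnot6 (0.933, 0.930), and for Tgfbr3 Myo10 (0.926, 0.941), Bclaf1 (0.920, 0.933) and Nfib (0.917, 0.899). The within-group value was lower than the overall value for Ccn2, Tgfb3 and Tgfbr1, and higher for 4 of the 6 probe sets named for Tgfbr2 and Tgfbr3. Since the probe sets were picked by the overall value, a lower value within groups is favoured by the choice.

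The rest of the pathway was read from lists of 123 further genes, of which 84 had a tested probe set. For hypertrophy over wild type limma called 1 of the 84 (10 at an unadjusted p under 0.05). For failure it called 0 when set against wild type (22 at an unadjusted p under 0.05) and 0 when set against hypertrophy (17). Over 9440 genes, each by its brightest tested probe set, 0.0742%, 0.233% and 0.0212% were called. Over all tested probe sets, 312 of 6980 (first type) and 684 of 7004 (second) had an unadjusted p under 0.05 in hypertrophy against wild type. These counts were 746 and 854 for failure against wild type, and 702 and 607 for failure against hypertrophy. The called gene was Vgll4, a cofactor that competes with YAP for TEAD, which rose by 0.82 ± 0.14 (adjusted p 0.0238) in hypertrophy and differed by 0.65 ± 0.18 in failure (adjusted p 0.117). Its call in hypertrophy was lost without wild type replicate 1, 3 or 4, without hypertrophy replicate 3, and without hypertrophy replicates 6 and 7 together. Without failure replicate 3, 6 of the 84 were called when failure was set against wild type and 5 when it was set against hypertrophy. Over all tested probe sets that fit called 51 and 24 (first and second type) against wild type and 24 and 0 against hypertrophy. Without hypertrophy replicate 1, limma called 1 for failure over wild type, with 30 and 79 called over all tested probe sets. In failure against wild type 72.6% of the 84 were higher, with a median log2 difference of 0.19, against 58.7% and 0.04 over all genes.

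By role, the SMADs and their regulators had 9 of 10 genes higher in failure than in wild type, with a median of 0.24. Smad1, a BMP-pathway SMAD, differed by 0.59 ± 0.20 (adjusted p 0.288) and the inhibitory Smad7 by 0.44 ± 0.14 (adjusted p 0.252). Of the response genes 16 of 18 were higher, with a median of 0.40. Biglycan (Bgn), a matrix proteoglycan, differed by 1.61 ± 0.38 (adjusted p 0.117), fibronectin (Fn1) by 1.15 ± 0.29 (adjusted p 0.128) and elastin (Eln) by 0.80 ± 0.19 (adjusted p 0.117). Several response genes are also fibroblast markers, such as Postn and Col1a1, and fibroblast sums were higher on 2 of the 3 failure arrays.

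The latency and activation genes had 9 of 13 higher, with a median of 0.13, and Ltbp4, a latent TGF-beta binding protein, had the smallest p (1.05 ± 0.34, adjusted p 0.262). Among 14 YAP, TEAD and SRF pathway genes 11 were higher, with a median of 0.24, including Ankrd1 (0.89 ± 0.26, adjusted p 0.218) and vinculin, Vcl (0.78 ± 0.23, adjusted p 0.209). Tead3 was among the 3 that were lower (-0.40 ± 0.15, adjusted p 0.337). The 7 extracellular inhibitors had 3 higher, with a median of -0.02, although Fstl1 differed by 1.45 ± 0.40 (adjusted p 0.176) and Fstl3 by 0.53 ± 0.13 (adjusted p 0.0817). Among 9 other superfamily ligands 5 were higher, with a median of 0.10, and Bmp7 differed by -0.58 ± 0.17 (adjusted p 0.199). Other superfamily receptors had 5 of 8 higher, with a median of 0.16, and the non-SMAD mediators 2 of 4, with a median of 0.02. Of the other CCN genes, Ccn3 was tested (0.30 ± 0.30, adjusted p 0.776).

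**Figure D5:**
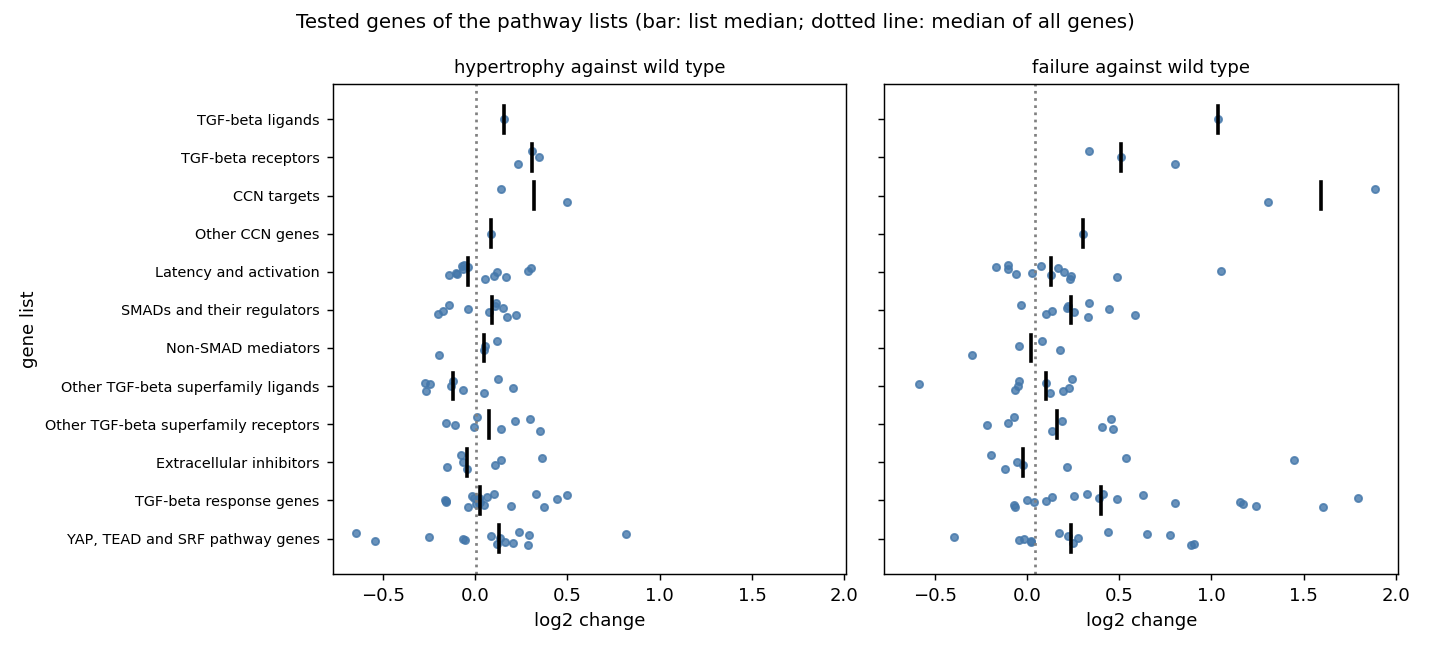
Log2 difference of each tested gene of the pathway lists (points), 1 row per list, with hypertrophy (left) and failure (right) each set against wild type, with the list's median as a bar and the median of all genes as a dotted line. In failure the response genes have the highest median of the lists outside the members with over 1 tested gene (0.40), and the extracellular inhibitors the lowest (-0.02).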

How the data were processed

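Total RNA of 32 samples was measured on 2 array types. The authors deposited linear intensity values, 1 per probe set and array. They were scaled and summarised in a way not given in the sources used here. No further scaling was applied. Gene names came from the platform annotation, and symbols were brought up to GRCm38.p6. Signals were raised to the 20th percentile of their type (39.5 and 27.5) and log2 transformed, which understates changes and spread of dim probe sets. Control probe sets were left out, and 6980 of 12488 and 7004 of 12477 probe sets reached their array's median in at least 3 arrays and were tested. Each type was fitted with limma 3.58.1 (R 4.3.3), with 1 model over the 5 wild type, 8 hypertrophy and 3 failure arrays, and adjusted by Benjamini-Hochberg per type and comparison. The fit was tested on simulated data. Correlations used scipy 1.17.1 and figures matplotlib 3.10.9.

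No 2 arrays of a type held the same values (correlations 0.828 to 0.980 and 0.821 to 0.964). The members, gene lists and tests were chosen with earlier results of these data known. Every member probe set is described. A list gene is represented by its brightest tested probe set, on the first type where it has one there, and up to 4 genes a list could be named, called ones first and then by the smallest unadjusted p in failure against wild type. For each member gene the 3 most correlated probe sets of other genes were named. Alternatives covered scaling, floor, filter, variance trend, array weights, the groups in the fit, the replicate block, adjustment over both types, covariates and left-out arrays. The number of arrays limits the precision.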

Additional observations from a re-analysis of the deposited data

Results flagged for a closer look

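Of 25 groups of 4 to 10 arrays examined, 4 held an array whose gap to its nearest neighbour was large for the group's range, where chance gives about 1 in 20. For Tgfb1, wild type replicate 1 stood at 124, above the other wild type arrays at 98.7 to 105. The other 3 are the only array of their group above the floor of 39.5: wild type replicate 2 of the dim Tgfb3 probe set at 44.0, and wild type replicate 2 (43.1) and hypertrophy replicate 4 (42.7) of the dim first-type Tgfbr3 probe set. All other arrays of those groups were set to the same floor value, so these 3 had to be flagged. The rate of 1 in 20 does not apply to such groups, and no excess is read from the count of 4. The low Ccn1 signal of failure replicate 3 is in a group of 3, which was not examined.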

How the results depend on the processing

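The count of called member probe sets in failure against wild type was 1. It was 2 with quantile scaling, median scaling, no filter, a filter on the mean, adjustment over both array types, the Actb ratio as a covariate, or without hypertrophy replicates 6 and 7, 3 with only the groups compared, 4 with array weights, and 0 with the replicate block. Leaving out each array in turn gave 0 to 3. In failure against hypertrophy 0 were called, 1 without the filter and 3 with array weights. In hypertrophy against wild type it was 0 in every setting run. Whether the replicate numbers of the titles pair the arrays is not settled. Correlations of same-numbered deviations were -0.191 to 0.363 (3 of 11 over 0.1) on the first type and -0.183 to 0.141 (2 of 11) on the second. Differently numbered arrays were not compared. With the replicate block the difference of Tgfbr1 was 0.78 (adjusted p 0.172). Over all tested probe sets the failure against wild type count of 10 on the first type ranged from 0 to 1002 across 30 alternatives and that of 25 on the second from 4 to 428 across 29, the highest with array weights. Quantile scaling gave 30 and 35 (first and second type), median scaling 33 and 40, and no filter 22 and 55. The Actb ratio as a covariate gave 42 and 81, and leaving out hypertrophy replicates 6 and 7 gave 34 and 70. With only the groups compared it was 122 and 193, and with the replicate block 3 and 6. In failure against hypertrophy 0 and 2 were called over all, 10 and 12 without the filter and 274 and 30 with array weights.

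Of the other pathway genes, 1 was called in hypertrophy against wild type, and 0 without the filter, with the replicate block, or without hypertrophy replicates 6 and 7 (0 to 1 with an array left out). In failure against wild type the count of 0 became 29 with array weights, 5 with only the groups compared, and 1 with the Actb ratio as a covariate or without hypertrophy replicates 6 and 7 (0 to 6 with an array left out). In failure against hypertrophy it became 13 with array weights (0 to 5 with an array left out). Over all tested probe sets the failure against wild type counts, 10 and 25 (first and second type), also rose. They were 1002 and 428 with array weights, 122 and 193 with only the groups compared and 42 and 81 with the Actb ratio. Array weights gave 274 and 30 in failure against hypertrophy. Signs turned for Tgfbr3 in failure against hypertrophy, at -0.0139 with median scaling, -0.0478 with array weights and -0.062 to 0.107 with an array left out, and for the hypertrophy relations of Ccn2 with Tgfb3 (-0.577) and Tgfbr3 (-0.151) without the 2 farthest arrays, of which the Tgfbr3 value is not informative, as 1 array alone was above the floor. The count of relations past the threshold was 0, and 1 without hypertrophy replicates 6 and 7. That relation, with Tgfbr1, was r = 0.060 without the 2 farthest arrays. The cause of these changes was not tested. Xist class as a covariate was run on the first type alone. Only 3 failure arrays were measured, and differences and spread of probe sets with signals below the floor are understated.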
